A study of Cicer arietinum with 5 samples.

Results

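Asymmetric-only windows are 500 bp stretches of the chickpea genome in which no listed methylcytosine had a listed partner at a CG or CHG distance on the opposite strand. They were selected from the measured methylcytosine calls of all 5 libraries. A cytosine was assigned to CG when the opposite strand held a listed cytosine 1 base downstream, to CHG when it held one at 2 bases and none at 1 base (H is A, C or T), and otherwise to the asymmetric class. A window was taken when 6 or more asymmetric cytosines were listed in every library (shared cytosines) and no CG and no CHG was listed in any. The rule found 2899 windows, which were 1.63% of the 177617 windows of chromosomes Ca1 to Ca8 with 6 or more shared asymmetric cytosines (tested windows) and 0.558% of the 519641 windows with any listed cytosine. The remaining 174718 tested windows held at least 1 CG or CHG, and 165497 of them held both, and they are called other windows below.

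Whole genome bisulphite sequencing was performed on seeds of the small-seeded chickpea cultivar Himchana 1, collected at mid-maturation (S5, 3 libraries) and at late-embryogenesis (S3, 2 libraries). The plants were field-grown, carried no transgene or mutation named in the labels, and the stage of the seeds is the only difference between the groups that the labels give. DNA came from pooled seeds whose tissues were not separated, and in chickpea the endosperm is resorbed before S5 as the study describes, so that its loss and a change within the other tissues cannot be told apart. The libraries listed 26011939 to 27776981 methylcytosines at S5 and 24562004 and 25783457 at S3, with a median coverage of 12 to 14 reads at S5 and 14 reads at S3.

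In plants, CG methylation is copied at replication by MET1 and CHG methylation by CMT3, because both strands carry the mark. Asymmetric CHH sites have no partner to copy from, and their methylation is set anew by DRM2, guided by small RNAs in RNA-directed DNA methylation, or by CMT2 in heterochromatin. CHH methylation is known to rise in developing seeds of several plants. A region with CHH methylation alone would be methylated without the symmetric marks that are copied at replication.

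For most of the windows the listed cytosines did not allow this context to be told. In 1856 of the 2899 windows (64.0%) no cytosine of the opposite strand was listed in any library, 962 of them with forward and 894 with reverse cytosines only. In such single-strand windows no partner could be found by the rule, so that a CG or CHG site with only one listed cytosine was counted as asymmetric. All shared cytosines lay on 1 strand in 93.0% of the asymmetric-only windows, a share that the rule itself raised by leaving out windows with opposite partners. In only 147 windows (5.07%), called both-strand windows, did each strand hold 2 or more shared cytosines. The other 896 windows listed both strands but did not meet that limit, and are called remaining windows. These classes were formed after the data had been seen. The genome of the version used by the files was not used here, and whether the cytosines of single-strand windows are CHH was not tested.

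The methylation level, which is the percent of reads that kept C, differed in shape between these classes. In single-strand windows, 62.0% of the 22895 shared cytosines had a mean level of 80% or more over the 5 libraries and 48.5% had 90% or more, while 19.3% were below 50%. In both-strand windows, 21.0% of the 2523 shared cytosines reached 80% and 37.6% were below 50%. Among the asymmetric cytosines of the other windows 10.4% reached 80%, against 84.2% of their CHG and 97.4% of their CG cytosines. The single-strand windows thus held a mixture, with one peak at the level of the symmetric contexts and a flat tail below it. A cytosine of 80% or more stood in the same window as one under 50% in 1221 of the 1856 single-strand windows (65.8%). In 194 single-strand windows every shared cytosine was at 80% or more, and in 38 none was.

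**Figure D1:**
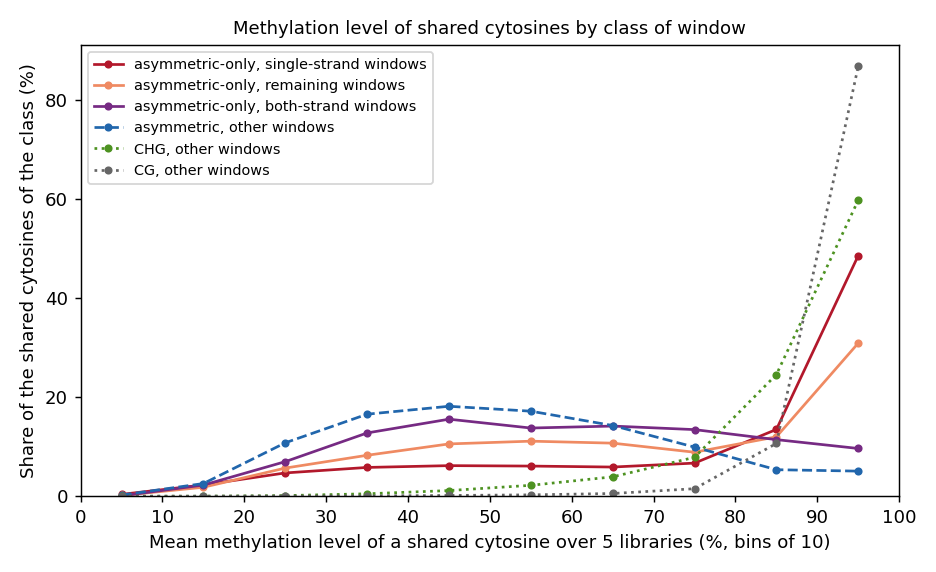
Share of shared cytosines (vertical axis, %) in each bin of 10 percentage points of mean methylation level over the 5 libraries (horizontal axis, %), for 3 classes of asymmetric-only windows and for the asymmetric, CHG and CG cytosines of the other windows. Of the cytosines of single-strand windows 48.5% lie in the top bin, against 9.63% in both-strand windows and 5.06% of the asymmetric cytosines of the other windows.

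The single-strand window with the most shared cytosines showed this mixture within 500 bp. Ca2:24407501-24408000 listed 79 cytosines, all on the reverse strand, and 56 were shared. Of these, 29 had a mean level of 80% or more and 24 were under 50%, with high and low cytosines a few bases apart. The level over the whole window was 61.8, 56.2 and 64.6% in S5 replicates 1, 2 and 3, against 58.4 and 59.9% in S3 replicates 1 and 2. The stages overlapped in this window. Coverage was 72.8 to 118 reads per cytosine at S5 and 128 and 131 reads at S3, above the median of 16.6 reads over the tested windows.

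**Figure D2:**
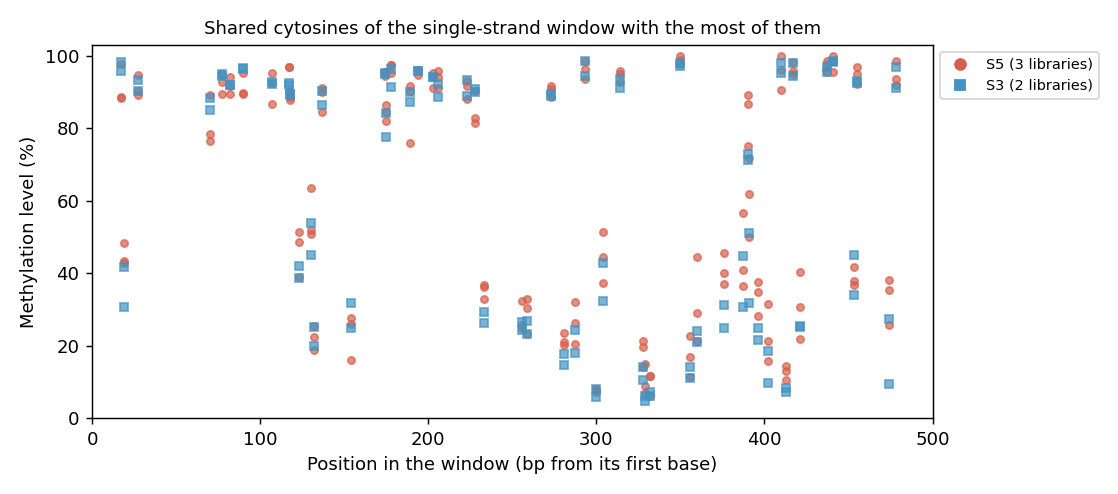
Methylation level (vertical axis, %) of the 56 shared cytosines along Ca2:24407501-24408000 (horizontal axis, bp from the first base of the window), with circles for the 3 S5 libraries and squares for the 2 S3 libraries. Most cytosines lie either near the top, with 29 at 80% or more, or low, with 24 under 50%, and the points of S5 and S3 lie in both of these ranges.

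A subset of cytosines can only be CHH whatever the unlisted bases are, because the next 2 bases on the same strand are also listed cytosines. There were 170 such shared cytosines, in 131 of the asymmetric-only windows. Their level was 58.5, 55.4 and 60.6% in S5 replicates 1, 2 and 3, against 48.3 and 48.4% in S3 replicates 1 and 2. The S5 libraries all lay above the S3 libraries, with 58.2 ± 2.63% at S5 (SD, n = 3) and 48.3 ± 0.0685% at S3 (SD, n = 2). The difference was 9.86 percentage points (exact permutation p = 0.1, the smallest that 5 libraries allow). The 10870 cytosines of this kind in the other windows had 52.5 ± 2.36% at S5 (SD, n = 3) and 44.7 ± 0.927% at S3 (SD, n = 2), a difference of 7.77 points (exact permutation p = 0.1).

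Over all 35684 shared cytosines of the asymmetric-only windows the level was little higher at S5. It was 73.7, 72.7 and 74.9% in S5 replicates 1, 2 and 3, against 72.3 and 71.6% in S3 replicates 1 and 2, and the stages did not overlap. The means were 73.8 ± 1.07% at S5 (SD, n = 3) and 71.9 ± 0.476% at S3 (SD, n = 2), a difference of 1.85 points (two-sided exact permutation p = 0.2). The other windows had 54.4, 52.6 and 56.3% in S5 replicates 1, 2 and 3, against 50.3 and 49.2% in S3 replicates 1 and 2, a difference of 4.67 points (exact permutation p = 0.1). The gap between asymmetric-only and other windows was 19.4, 20.1 and 18.6 points in S5 replicates 1, 2 and 3, against 22.0 and 22.4 points in S3 replicates 1 and 2. The gap was thus smaller in every S5 library, with an S5 minus S3 difference of -2.82 points (exact permutation p = 0.1). With 3 libraries against 2, none of these tests can fall below 0.1, so none can pass a threshold of 0.05.

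The stage difference was also taken within each class of windows, and it was not tested between the classes. Single-strand windows had 76.8, 76.7 and 77.5% in S5 replicates 1, 2 and 3, against 75.8 and 75.4% in S3 replicates 1 and 2, without overlap (difference 1.37 points, exact permutation p = 0.1). Remaining windows had 70.0 ± 1.77% at S5 (SD, n = 3) and 67.1 ± 0.553% at S3 (SD, n = 2), a difference of 2.98 points without overlap (exact permutation p = 0.2). Both-strand windows had 61.3, 55.1 and 63.7% in S5 replicates 1, 2 and 3, against 59.6 and 57.2% in S3 replicates 1 and 2, and the stages overlapped through S5 replicate 2 (difference 1.64 points, exact permutation p = 0.8). In both-strand windows the median forward minus reverse difference was -0.0071 points, with a middle range from -7.79 to 6.94 points. Differences of opposite sign cancel in this median, so it does not show how near the strands are within a window. The strands lay within 10 points of each other in 90 of the 147, and further apart in the rest.

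The stage difference varied with the level of the cytosine. The bins were set by the mean of the same 5 libraries, and a level cannot pass either end of the scale. Differences in the end bins are therefore limited, in every context. Among cytosines with a mean level of 40 to 50%, the asymmetric-only windows had 47.1% at S5 and 41.8% at S3, and the other windows had 47.3% at S5 and 41.5% at S3. The differences were 5.34 and 5.77 points, and in the bins below 60% the asymmetric-only windows stayed within 0.639 points of the other windows. At 70 to 80% the difference was 1.16 points in the asymmetric-only windows, where the stages overlapped, and 4.08 points in the other windows, where they did not. Among cytosines of 80 to 90% in single-strand windows the level was 85.7% at S5 and 86.5% at S3, lower in every S5 library. In the same bin the asymmetric cytosines of the other windows differed by 2.26 points, their CG cytosines by -1.11 points and their CHG cytosines by -3.94 points. Above 90%, asymmetric-only windows differed by 0.18 points and the stages overlapped. Below 80% as a whole, asymmetric-only windows had 51.6 ± 1.92% at S5 (SD, n = 3) and 47.6 ± 0.901% at S3 (SD, n = 2), a difference of 4.02 points (exact permutation p = 0.2). The gap to the other windows below 80% differed by -1.04 points between S5 and S3 (exact permutation p = 0.1).

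**Figure D3:**
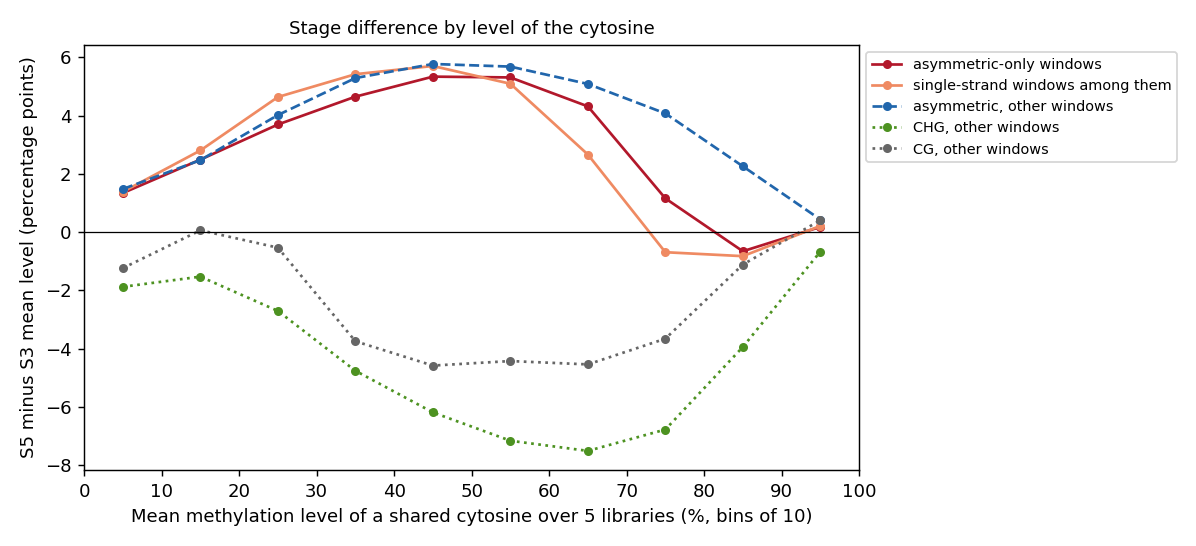
Difference of the S5 mean level minus the S3 mean level (vertical axis, percentage points) by bin of the mean level of the cytosine over the 5 libraries (horizontal axis, %), for asymmetric-only windows, the single-strand windows among them, and the 3 contexts of the other windows. The asymmetric-only windows follow the asymmetric cytosines of the other windows up to 60%, leave them at 70 to 80% (1.16 against 4.08 points) and are at -0.65 points at 80 to 90%.

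The stages overlapped in depth. Mean coverage at the shared cytosines was 27.0, 17.7 and 27.5 reads in S5 replicates 1, 2 and 3, against 26.0 and 27.1 reads in S3 replicates 1 and 2 (exact permutation p = 0.9). S5 replicate 2 was the shallowest, and without it the S5 minus S3 difference was 0.733 reads in place of -2.44 reads. The asymmetric-only windows listed 61908, 55347 and 61738 asymmetric cytosines in S5 replicates 1, 2 and 3, against 55270 and 58140 in S3 replicates 1 and 2. The stages overlapped here too, with 59664 ± 3740 at S5 (SD, n = 3) and 56705 ± 2029 at S3 (SD, n = 2), and no test is given because listing chose the windows. The reads of the other libraries were then thinned to the mean coverage of S5 replicate 2, which was kept whole. The numbers became 48415, 55347 and 47636 in S5 replicates 1, 2 and 3, against 44088 and 44901 in S3 replicates 1 and 2, without overlap of the stages. The median coverage of whole libraries differed less, with 12 reads in S5 replicate 2 and 13 or 14 reads in the others. S5 replicate 2 moved from below S3 replicate 2 to the highest, while the other libraries kept their order among themselves. No conclusion on the stages is drawn from the lost overlap. Cytosines listed in all S5 libraries and neither S3 library numbered 1400, against 783 listed in both S3 libraries and no S5 library. The ratio of these was 1.79 in the asymmetric-only windows and 1.69 in the other windows. The first count asks for listing in 3 libraries and absence from 2, and the second for the reverse. The counts therefore need not be equal without a stage difference, and no gain at S5 is read from the ratio.

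Most of the windows had a listed CG or CHG in a neighbouring window. In single-strand windows, symmetric sites with an unlisted partner may also lie within the window itself. A window held a median of 10 shared cytosines (6 to 91) and 27 listed in any library (6 to 143), against medians of 13 and 59 in the other windows. Shared cytosines spanned a median of 199 bp, against 387 bp in the other windows. The nearest listed CG or CHG lay a median of 109 bp outside the window and at most 10610 bp, and in 748 windows none lay within 250 bp. A neighbouring window held CG or CHG beside 2579 of the 2899 windows, and 320 had none on either side. The windows stood alone in 2588 cases, in 148 runs of 2 and in 5 runs of 3. The first run of 3, Ca2:11941001-11942500, listed forward-strand cytosines only. Its first window had 63.5, 63.4 and 66.5% in S5 replicates 1, 2 and 3, against 62.0 and 62.3% in S3 replicates 1 and 2. Its second window had 62.8 to 64.9% at S5 and 64.5 and 65.3% at S3, and its last had 67.6 to 69.8% at S5 and 66.0 and 69.8% at S3. The stages overlapped in the second and in the last window.

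The windows were found on every chromosome, from 121 on Ca8 to 487 on Ca6. They made up 1.45% (Ca7) to 1.76% (Ca3) of the tested windows on 7 chromosomes and 2.31% on Ca8. Each of the 8 chromosomes had the higher mean at S5, by 1.24 points on Ca6 to 2.31 points on Ca2. The libraries of the stages overlapped on Ca6 alone among the 8.

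At the limit of the rule, 453 windows had exactly 6 shared cytosines. Their mean level was 75.8, 75.05 and 77.4% in S5 replicates 1, 2 and 3, against 75.1 and 74.2% in S3 replicates 1 and 2. Just outside it, 598 windows with 5 shared cytosines and no CG or CHG had 74.6, 73.3 and 75.8% at S5, against 73.1 and 72.4% at S3. Single-strand windows made up 66.2% of the windows just inside and 61.2% of those just outside.

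Each tested window was then compared between stages by a logistic regression on its methylated and unmethylated reads. A window was called when q (Benjamini-Hochberg over all tested windows) was 0.01 or less and the level differed by 25 points or more. The study used the same limits, but on shorter, sliding windows and with q from a sliding linear model. Of the asymmetric-only windows 7 were called higher at S5 (0.241%), where 0.235% of all tested windows were, and 7 were called lower (0.241%), where 0.0276% of all tested windows were. Over the asymmetric-only windows as a whole, higher calls were thus as frequent as in the background at this limit. By class they were 1 of the 1856 single-strand windows (0.0539%), 5 of the 896 remaining windows (0.558%) and 1 of the 147 both-strand windows (0.680%). The match to the background therefore holds for the pooled classes only. Lower calls equalled higher ones in number, against 49 lower and 417 higher over all tested windows. A window of high level has less room to rise by 25 points. The median level was 75.4% in the asymmetric-only windows and 49.6% in the other windows, with medians of 10 and 13 shared cytosines. The shares of calls are therefore not compared with the background on equal terms. At a limit of 10 points, 167 were called higher (5.76%) and 49 lower (1.69%), against 17819 higher and 855 lower (0.481%) of the 177617 tested windows, so that higher calls were then rarer than in the background. A quasi-binomial test, which also takes the spread between replicates into account, called 5 higher (0.172%, background 0.0732%) and 4 lower (0.138%, background 0.0169%). By this test the share of higher calls, on 5 windows, was above the background. None of the 5 was a single-strand window, and 4 were remaining windows (0.446% of that class). The higher calls came to 14 without S3 replicate 1 (0.483%, background 0.528%) and 18 without S5 replicate 2 (0.621%, background 0.488%), and the lower calls to 11 without S5 replicate 3 (0.379%, background 0.0524%). Counting only whether the libraries overlapped, every S5 library lay above every S3 library in 678 asymmetric-only windows (23.4%), against 39.3% of all tested windows. Every S5 library lay below every S3 library in 220 (7.59%), against 2.76% of all tested windows.

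Among the windows called higher, the largest rise was at Ca6:33862501-33863000, with 8 shared cytosines on the reverse strand. Its level was 64.3, 41.3 and 59.8% in S5 replicates 1, 2 and 3, against 17.6 and 20.6% in S3 replicates 1 and 2. All S5 libraries were at least 20 points above the S3 libraries, and the difference was 36.0 points (logistic regression q = 3.90e-27, quasi-binomial q = 0.00480). Ca2:28515501-28516000, with 12 shared cytosines, had 81.4, 74.6 and 75.8% at S5, against 45.3 and 43.7% at S3 (difference 32.8 points, quasi-binomial q = 0.00157). Ca3:23763001-23763500, with 13 shared cytosines, had 83.7, 70.4 and 70.1% at S5, against 51.9 and 42.9% at S3 (difference 27.3 points, quasi-binomial q = 0.00888). None of these 3 was a single-strand window, but in each of them all shared cytosines, from which the level was taken, lay on 1 strand. None of their shared cytosines had a mean level of 80% or more.

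The largest fall was at Ca5:35818501-35819000, a single-strand window with 7 shared cytosines. Its level was 41.7, 27.7 and 38.5% in S5 replicates 1, 2 and 3, against 80 and 76.7% in S3 replicates 1 and 2, and the difference was -42.4 points (quasi-binomial q = 0.00273). Ca2:32208001-32208500, with 8 shared cytosines, had 42.7, 22.8 and 52.7% at S5, against 78.4 and 79.3% at S3. Its difference of -39.4 points passed the logistic regression (q = 1.30e-18) but not the quasi-binomial test (q = 0.0116). Ca3:9951001-9951500, a single-strand window with 11 shared cytosines, had 25.2, 17.1 and 19.2% at S5, against 52.8 and 49.0% at S3 (difference -30.4 points, quasi-binomial q = 3.15e-04). In each of the 3 windows every S5 library lay below every S3 library, and S5 replicate 2 was the lowest library.

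**Figure D4:**
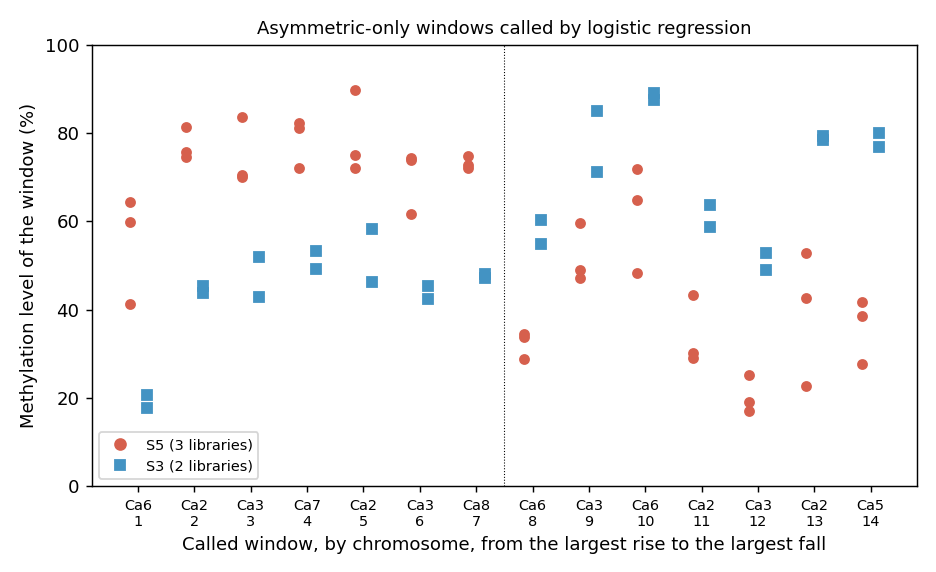
Methylation level (vertical axis, %) of the 14 asymmetric-only windows called by logistic regression (horizontal axis, by chromosome, from the largest rise on the left to the largest fall on the right), with circles for the 3 S5 libraries and squares for the 2 S3 libraries. In all 14 windows the S5 and S3 libraries do not overlap, from a rise of 36.0 points to a fall by 42.4 points.

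The windows with the most shared cytosines were of another kind. The first 4 lay near each other on Ca6 and were both-strand windows, with cytosines of intermediate level and none at 80% or more. Ca6:3379001-3379500 had 91 shared cytosines and 47.0, 28.3 and 47.4% in S5 replicates 1, 2 and 3, against 52.3 and 45.6% in S3 replicates 1 and 2. Ca6:3170501-3171000 had 78 and 36.4, 22.6 and 38.5% at S5, against 47.9 and 48.3% at S3. Ca6:3171001-3171500 had 68 and 26.1, 17.4 and 29.1% at S5, against 41.6 and 36.5% at S3. Ca6:3169001-3169500 had 62 and 36.5, 24.3 and 35.8% at S5, against 46.5 and 40.8% at S3. The S5 libraries lay below the S3 libraries in the last 3, and S5 replicate 2 was the lowest in all 4. By the quasi-binomial test q was 0.00506 for Ca6:3171001-3171500 and above 0.01 for the others, and none reached 25 points. S5 replicate 2 was the shallowest library over all asymmetric-only windows but the deepest over both-strand windows. There it had 21.7 reads, against 19.6 and 17.2 reads in S5 replicates 1 and 3 and 17.8 and 20.6 reads at S3. At Ca6:3171001-3171500 it had 80.8 reads, against 55.4 and 31.6 reads in S5 replicates 1 and 3 and 43.5 and 61.6 reads at S3. The part of coverage in the level was not tested.

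The positions of the listed cytosines recurred between these windows, although no sequence was used. Each pair of both-strand windows was laid over each other at every offset and in both orientations, and the share of listed cytosines that coincided in position and strand was taken. Windows were linked when 60% or more coincided over an overlap of 200 bp or more, with at least 25 coincident cytosines, and these limits were set after the data had been seen. Over the 4412 pairs that could be scored, the best share had a median of 30.8% and a 99th percentile of 53.3%, and 20 pairs passed. Ca6:3162501-3163000 and Ca6:3169001-3169500 shared 61 of 61 cytosines at an offset of 287 bp, and Ca6:3162501-3163000 shared 84 of 91 with Ca6:3171001-3171500. With Ca6:3170501-3171000 and Ca6:3379001-3379500 they formed a group of 5 windows. Within Ca6:3169001-3171500, listed cytosines recurred at a distance of 368 bp on both strands, in 69 pairs of forward and 112 pairs of reverse cytosines, where the median over all distances was 15 and 31 pairs. The 337 shared cytosines of the group had 39.2, 24.5 and 40.7% in S5 replicates 1, 2 and 3, against 47.1 and 43.4% in S3 replicates 1 and 2. The difference was -10.5 points with all libraries and -5.30 points without S5 replicate 2. Coverage of the group was 28.1, 40.7 and 21.9 reads in S5 replicates 1, 2 and 3, against 26.5 and 33.0 reads at S3. The library with the lowest level was thus the deepest in this group. Ca6:3162501-3163000 had 43.8, 23.8 and 41.6% in S5 replicates 1, 2 and 3, against 39.9 and 41.4% in S3 replicates 1 and 2, so that this window was lower only in S5 replicate 2.

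A second group of 7 both-strand windows was dispersed over 5 chromosomes. Ca3:9996501-9997000 shared 55 of 61 listed cytosines with Ca7:15306501-15307000 and 34 of 38 with Ca2:31241501-31242000, and 4 of the 10 links of the group were found with one window turned round. The 164 shared cytosines of the group had 66.3, 63.6 and 66.6% in S5 replicates 1, 2 and 3, against 52.3 and 53.9% in S3 replicates 1 and 2. Among both-strand windows as a whole the S5 level was above the S3 level in 64.6%. In the group the level was higher at S5 in all 7 windows, by 5.39 points at Ca4:33015501-33016000 to 19.0 points at Ca7:15306501-15307000, and by 12.4 points over the group. The 7 windows are not all separate copies of the pattern. Ca2:31241501-31242000 and Ca2:31242001-31242500 adjoin, and matched Ca3:9996501-9997000 at offsets of 223 and -277 bp, as parts of the same copy. The count of windows is therefore not a count of independent cases. The mean level was thus higher at S5 in the dispersed group and lower in the group on Ca6, where 2 of the 5 windows overlapped between stages through S5 replicates 1 and 3. As both groups were formed after the data had been seen, no test is given.

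**Figure D5:**
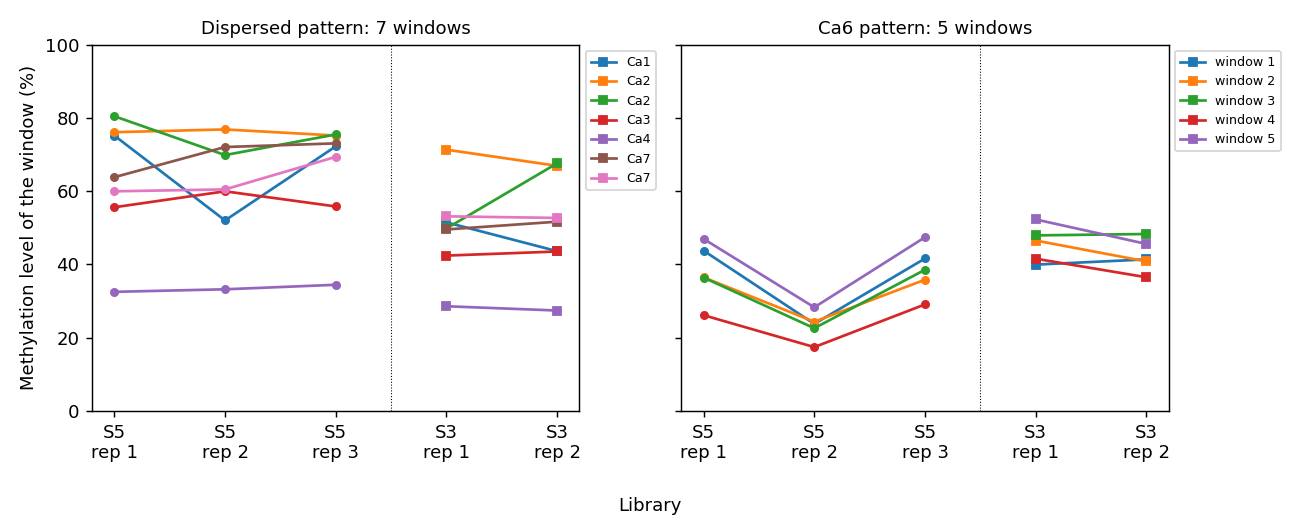
Methylation level of each window (vertical axis, %) in each library (horizontal axis, S5 left of S3) for the 7 dispersed windows that share a pattern of listed cytosines (left) and the 5 windows of the pattern on Ca6 (right), with a line for each window and stage. All 7 dispersed windows have a higher mean at S5, and the windows on Ca6 are lowest in S5 replicate 2.

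The highest mean level was at Ca8:9692501-9693000, with 97.4, 100 and 100% in S5 replicates 1, 2 and 3, against 100 and 97.7% in S3 replicates 1 and 2. Ca5:12042001-12042500 followed with a mean of 98.8%, and both windows had 6 shared cytosines at a mean coverage of 7.13 and 9.4 reads. The lowest, 15.7%, was at Ca1:47514501-47515000, with 21 shared cytosines, followed by 18.1% at Ca2:18324501-18325000, with 7. Both low windows were deeply covered, with a mean of 121 and 134 reads per cytosine. The deepest windows were Ca7:9202501-9203000 with 348 reads and Ca1:38255001-38255500 with 314 reads, both single-strand windows on the reverse strand. Their levels were 44.0, 41.8 and 44.5% in S5 replicates 1, 2 and 3, against 41.3 and 42.4% in S3 replicates 1 and 2, and 41.6, 39.6 and 42.4% at S5, against 37.9 and 39.8% at S3. The stages overlapped in both.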

How the data were processed

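Bisulphite-treated DNA of Himchana 1 seeds was sequenced by the authors, and the sample labels gave stage and replicate number. Per the labels and the methods of the study, the authors aligned filtered reads to the kabuli chickpea genome v1 with Bismark 0.14.3, kept reads mapped at a unique position, and listed cytosines covered by 5 or more reads that passed a binomial test at p of 0.0001 or less. The deposited coverage is a read count for each cytosine, and the deposited level is a percent, the share of reads that show C. The product of percent and count gave whole methylated reads at 100% of positions, within 0.001 plus 0.0001 of the coverage. An unlisted cytosine was either too thinly covered or not called, so losses and gains of all methylation are not in these comparisons. Positions given on more than 1 line were left out. Context was inferred from listed partners.

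The library was the replicate, and library means of the stages went into an exact permutation test, two-sided, over 10 assignments. Read counts of windows were compared by logistic regression (likelihood ratio), which takes no account of replicate spread, and by a quasi-binomial test with dispersions moderated in limma 3.58.1 (squeezeVar, R 4.3.3), both with Benjamini-Hochberg q over all 177617 tested windows. Named windows were the 5 with most shared cytosines, the longest run (the first of 5 equally long), the 3 largest rises and 3 largest falls among windows with q of 0.01 or less whose libraries did not overlap, the 2 highest and 2 lowest in level and the 2 deepest, beside the windows of the shared patterns, which were named after their values were seen. Gene names, sequences and annotation were not used, because the gene table at hand is of another assembly. The members and lists were chosen with earlier results of these data known.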

Additional observations from a re-analysis of the deposited data

How the results depend on the processing

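The level difference of the asymmetric-only windows kept its sign in all alternatives, from 1.13 points with pooled reads to 4.02 points with cytosines under 80% only (1.31 to 2.37 points with 1 library left out). The difference between their stage difference and that of the other windows kept its sign too, from -3.42 points with pooled reads to -1.04 points under 80% (-3.20 to -2.43 points with 1 library left out). The restrictions to single-strand windows, to cytosines under 80% and to windows outside the Ca6 cluster were added after the data had been seen. The number of listed cytosines was 1524 to 5118 higher at S5 with 1 library left out. It was 5972 higher, without overlap of the stages, after thinning by mean coverage, which left S5 replicate 2 whole and made it the highest library. The coverage difference S5 minus S3 was -4.15 to 0.733 reads with 1 library left out, with the sign turned only without S5 replicate 2.

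The number of windows was 1584 with 10 or more shared cytosines, 748 with no CG or CHG within 250 bp, 147 with 2 or more shared cytosines on each strand and 6396 in windows of 300 bp. With 1 library left out, higher calls numbered 8 to 18 (0.276 to 0.621%), against 369 to 938 over all 177617 tested windows (0.208 to 0.528%). Lower calls numbered 5 to 11 (0.172 to 0.379%), against 41 to 100 over all (0.0231 to 0.0563%). The quasi-binomial test gave 4 lower calls (0.138%), against 30 over all (0.0169%). With a limit of 10 points there were 167 higher and 49 lower calls, against 17819 and 855 over all. With 40 points the logistic regression gave 0 higher and 1 lower calls (0.0345%), against 2 (0.00113%) and 3 (0.00169%) over all, as the largest rise was 36.0 points. At an unadjusted p under 0.05 the logistic regression gave 639 higher (22.0%, against 40.9% of all tested windows) and 186 lower (6.42%, against 2.23%). The quasi-binomial test gave 349 higher (12.04%, against 23.95%) and 87 lower (3.001%, against 0.832%). With 10 or more shared cytosines there were 3 higher (0.189%) and 2 lower calls (0.126%). Over the 124438 tested windows that met this limit there were 141 (0.113%) and 26 (0.0209%). With both strands there were 1 higher (0.680%) and 1 lower call (0.680%), against 111 (0.0985%) and 14 (0.0124%) over 112726. Of the 898 windows without overlap 678 were higher and 220 lower. With 10 or more shared cytosines they were 507, of which 411 were higher (25.9%, against 43.9% of all windows under this limit) and 96 lower (6.06%, against 1.98%). With both strands they were 55, of which 41 were higher (27.9%, against 43.1%) and 14 lower (9.52%, against 1.82%).

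S5 and S3 libraries share the replicate numbers 1 and 2, but no label pairs them. The correlation of their deviations was 0.015 for number 1 and 0.049 for number 2 over the tested windows. With the replicate number as a block, higher calls came to 8 (0.276%) and lower calls to 11 (0.379%), against 370 (0.208%) and 93 (0.0524%) over all tested windows. With this block the level difference came to 1.31 points and the difference to the other windows to -2.43 points. The number of listed cytosines came to 1922 higher at S5 and coverage to -4.15 reads. Numbers alone do not pair the samples. Depth and the listing of called cytosines only limit all of these values.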

Other observations

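The pattern of the dispersed group was looked for in all tested windows, by matching each to Ca3:9996501-9997000 with the same limits. Besides 6 asymmetric-only windows, which are the other members of the group described above, 67 other windows on all 8 chromosomes matched. The level was higher at S5 in 61 of the 67, with a median difference of 6.41 points, where it was higher in 82.7% of all other windows. In the 6 asymmetric-only windows, already given above as higher at S5, the median was 13.5 points. The median difference over all other windows was 4.46 points. The Ca6 pattern, matched to Ca6:3379001-3379500, was met in 5 other windows on 4 chromosomes. Of these, 2 were higher at S5, at Ca1:8064501-8065000 with 58.3% at S5 and 50.4% at S3, and at Ca8:13814501-13815000 with 35.5% at S5 and 33.5% at S3. The other windows of the pattern on Ca6, Ca6:3159001-3159500 and Ca6:3169501-3170000, differed by -11.5 and -16.6 points and Ca2:25733501-25734000 by -6.96 points. S5 replicate 2 was the lowest library in these 3 and also at Ca8:13814501-13815000, where it had 30.1%.

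A further 2 pairs of both-strand windows shared a pattern. Ca1:280001-280500 and Ca4:17502501-17503000 coincided at 29 of 43 cytosines with one window turned round, and differed between stages by 8.65 and -2.12 points. Ca2:27440001-27440500 and Ca6:11988501-11989000 coincided at 41 of 63 and differed by 10.2 and 3.84 points. No test is given for these groups, which were formed after the data had been seen.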
